A study of Homo sapiens with 3 samples.

Results

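DNA replication and S-phase genes were described in 1 pooled culture of mesothelioma cells. The set holds 42 genes, named by symbol, of 36601 genes measured. They are MCM2, MCM3, MCM4, MCM5, MCM6, MCM7, CDC6, CDC45, GINS2 and GMNN (licensing and helicase), PCNA, FEN1, PRIM1, POLA1, POLD3, RFC2 and RPA2 (polymerases, sliding clamp and single-strand binding), TYMS, RRM1 and RRM2 (nucleotide supply), UNG, RAD51AP1, BLM, BRIP1, EXO1, TIPIN, CLSPN, DSCC1, USP1 and WDR76 (fork protection and repair), UHRF1, HELLS, ATAD2, CHAF1B, NASP, SLBP, CASP8AP2 and CDCA7 (chromatin and histone supply), and DTL, CCNE2, UBR7 and E2F8 (cycle regulators and ubiquitin). Each of the 42 was found by name and had at least 1 UMI, or unique molecular identifier, the count of 1 captured RNA molecule. The genes were read over cells. Accessible chromatin was read in the same cells, within 2 kb of the interval from each gene's first to its last start site.

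The pool held 4 conditions of human NCI-H226 cells, a mesothelioma line that is null for the Hippo pathway tumour suppressor NF2. These were parental cells and CL3, a single clone resistant to the TEAD inhibitor GNE7883, each challenged with GNE7883 or with the vehicle DMSO. To select CL3, the concentration of GNE7883 was increased by 0.1 to 0.5 µM at a time, starting at 0.25 µM and ending at 3 µM. The cells were labelled with hashtag antibodies, pooled and permeabilised with digitonin, and RNA and chromatin were profiled from the same cells with the 10x Multiome assay. The count matrix names no hashtag, so no cell could be assigned to a line or to a treatment, and the pool is 1 sample with no replicates. No p-value was computed, and all 95% intervals below cover counting error only.

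Replication origins are licensed in G1, when CDC6 and its partners load the MCM2-7 helicase onto DNA. At the start of S phase CDC45 and the GINS complex join the helicase, the polymerases copy the strands behind it, and PCNA, the ring-shaped clamp, holds polymerases and repair enzymes on the template. Many of these genes are targets of E2F factors, which activate them from late G1, and new histones, nucleotides and fork-protecting proteins are made at the same time.

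Of 651860 barcodes, 11130 had at least 1000 UMIs and 1000 peak counts, 2217 of these had over 20% mitochondrial UMIs, and 8913 cells remained. Per cell, the median depth was 1524 UMIs (range 1000 to 13064) and 4034 peak counts (range 1001 to 59374), and 13.9% of UMIs were mitochondrial. The mesothelial markers summed to 11520 UMIs per 1000000 UMIs (CPM), 9 immune markers to 8.86 CPM with 3 at 0 UMIs (CD3E, MS4A1 and NKG7), and 5 endothelial markers to 19.5 CPM with CLDN5 at 0. The mesothelial sum was led by the keratins KRT18 (4153 CPM), KRT8 (2517), KRT7 (1826) and KRT19 (1742). CALB2 had 771 CPM, UPK3B 272, MSLN 79.0 and WT1 68.4. Doublets remained among the cells: the Scrublet caller marked 4 of 8913, too few for it to have worked.

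The promoters of the 42 genes were read as sequence first, since E2F factors bind a short word in many of them. RefSeq promoters (GRCh38.p14, 250 bases before to 50 after the start) matched 33 of the 42. A search on both strands for the E2F words TTTCCCGC, TTTCGCGC, TTTGCCGC and TTTGGCGC found at least 1 in 17 of 33 (51.5%), against 3.33% of all 27305 promoters. Overlapping words were counted separately, and a GC box can overlap an E2F word. The CCAAT box was in 72.7% of the members' promoters against 35.7% of all, and the GC box GGGCGG in 75.8% against 44.6%. The word TTTGAA, known from promoters of genes that peak in G2 and mitosis, was in 6.06% against 15.4%. The members' promoters were richer in G and C (median 65.0% against 58.3%), and the part of base composition in these shares was not tested. A match here is a string of letters and not a shown binding site.

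The upstream 250 bases are shown for 7 genes, 5′ to 3′ on the strand of the gene, with E2F words in capitals. MCM6, MCM3, MCM7 and HELLS are shown because each held more than 1 word in its 300 bases, DTL because its expression varied most with the other members, MCM2 because its promoter peak had the largest ratio in the chromatin comparison, and RRM2 as a strongly varying gene without a word.
MCM6: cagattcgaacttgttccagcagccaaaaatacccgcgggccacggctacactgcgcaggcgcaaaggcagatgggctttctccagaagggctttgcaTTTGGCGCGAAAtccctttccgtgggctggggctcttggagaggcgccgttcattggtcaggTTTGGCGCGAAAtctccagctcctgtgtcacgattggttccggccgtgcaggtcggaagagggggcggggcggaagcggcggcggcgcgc
MCM3: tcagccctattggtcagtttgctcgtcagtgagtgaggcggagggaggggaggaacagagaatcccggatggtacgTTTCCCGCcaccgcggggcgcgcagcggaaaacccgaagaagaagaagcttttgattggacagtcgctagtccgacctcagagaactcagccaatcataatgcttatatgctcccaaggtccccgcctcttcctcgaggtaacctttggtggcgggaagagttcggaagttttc
MCM7: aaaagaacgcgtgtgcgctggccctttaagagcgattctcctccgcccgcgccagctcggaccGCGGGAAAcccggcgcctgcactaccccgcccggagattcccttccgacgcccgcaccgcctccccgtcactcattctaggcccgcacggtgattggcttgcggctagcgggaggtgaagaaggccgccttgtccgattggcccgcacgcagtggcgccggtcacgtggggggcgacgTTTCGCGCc
HELLS: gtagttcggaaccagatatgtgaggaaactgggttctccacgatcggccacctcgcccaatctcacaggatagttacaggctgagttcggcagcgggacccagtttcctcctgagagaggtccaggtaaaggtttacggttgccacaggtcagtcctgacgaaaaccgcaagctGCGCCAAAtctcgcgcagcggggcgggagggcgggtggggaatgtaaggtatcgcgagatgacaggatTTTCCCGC
DTL: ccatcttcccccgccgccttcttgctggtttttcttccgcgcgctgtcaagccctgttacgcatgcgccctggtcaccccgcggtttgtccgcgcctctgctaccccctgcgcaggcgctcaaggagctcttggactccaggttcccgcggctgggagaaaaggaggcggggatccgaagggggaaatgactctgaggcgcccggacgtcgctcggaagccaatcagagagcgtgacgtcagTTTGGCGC
MCM2: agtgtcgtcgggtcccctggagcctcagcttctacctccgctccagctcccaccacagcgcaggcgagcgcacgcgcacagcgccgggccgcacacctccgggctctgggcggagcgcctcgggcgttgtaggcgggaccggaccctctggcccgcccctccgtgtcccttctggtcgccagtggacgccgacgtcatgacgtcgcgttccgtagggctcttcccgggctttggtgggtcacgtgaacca
RRM2: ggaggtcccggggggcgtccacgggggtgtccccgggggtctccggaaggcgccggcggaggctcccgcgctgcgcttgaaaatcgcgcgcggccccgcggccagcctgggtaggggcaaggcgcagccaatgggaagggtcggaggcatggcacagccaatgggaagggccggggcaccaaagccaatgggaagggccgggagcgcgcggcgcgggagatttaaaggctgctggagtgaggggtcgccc
They lie at chr2:135876444-135876693 on the minus strand (MCM6), chr6:52284743-52284992 minus (MCM3), chr7:100101398-100101647 minus (MCM7), chr10:94545538-94545787 plus (HELLS), chr1:212035498-212035747 plus (DTL), chr3:127598161-127598410 plus (MCM2) and chr2:10122489-10122738 plus (RRM2). In MCM6 the 4 words form 2 overlapping pairs, which start 152 to 86 bases before the start site. In DTL the single word ends just before the start site. Both words of MCM2 fall after the start site and the other word of MCM3 spans it, so none of these is in capitals here.

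Together the 42 genes gave 20728 UMIs, or 1250 CPM (1233 to 1267), which is 0.125% of the UMIs in cells. At least 1 of them was seen in 7112 cells (79.8%). When each cell was thinned to 800 non-mitochondrial UMIs, to set cells at 1 depth, the share was 62.9%. The set was sparse: 22 of the 42 genes stood under 20 CPM, the share of cells with a UMI of a given member ranged from 0.539% to 17.6%, and the 12 members with most UMIs held 57.7% of the total.

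The gene with the highest count was RRM1, the large subunit of ribonucleotide reductase, which makes deoxynucleotides (1843 UMIs, 111 CPM). NASP, a histone chaperone, followed with 1661 UMIs (100 CPM), and ATAD2, a bromodomain ATPase, with 1321 (79.6 CPM). CLSPN, the adaptor that relays the replication checkpoint to CHEK1, had 968 UMIs (58.4 CPM), and HELLS, a chromatin remodeller linked to DNA methylation, had 936 (56.4 CPM). MCM4 had 845 UMIs (50.9 CPM), TYMS, which makes thymidylate, 836 (50.4 CPM), and the helicase BRIP1 818 (49.3 CPM). The other members of the leading 12 were USP1, the deubiquitinase of PCNA and FANCD2 (769 UMIs), the polymerase alpha catalytic subunit POLA1 (657), CASP8AP2, which is needed for histone gene expression (655), and MCM7 (653). At the low end stood CDC45 with 75 UMIs (4.52 CPM), the DNA exonuclease EXO1 with 89, the clamp-loader subunit DSCC1 with 65 and the repressor E2F8 with 49 (2.95 CPM).

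Per kilobase of the gene's locus the order was different. MCM7 (4.54 CPM per kb), FEN1, the flap endonuclease of lagging strands (4.36), the licensing inhibitor GMNN (3.17), TYMS (3.16) and USP1 (3.01) led on this scale, and CDC45 was lowest at 0.110. The subunits of the MCM2-7 ring, which are present once each in the assembled helicase, ranged from 11.6 CPM (MCM5) to 50.9 CPM (MCM4), and from 0.211 (MCM5) to 4.54 (MCM7) CPM per kb. Several values are uncertain by annotation. Other RefSeq genes overlap 12 members, among them TYMS with ENOSF1 and MCM7 with AP4M1, and 10 members have named pseudogenes, among them PCNA with 4. The sources used here do not say whether counting used strand, so reads of such neighbours cannot be told apart from the member's own.

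**Figure D1:**
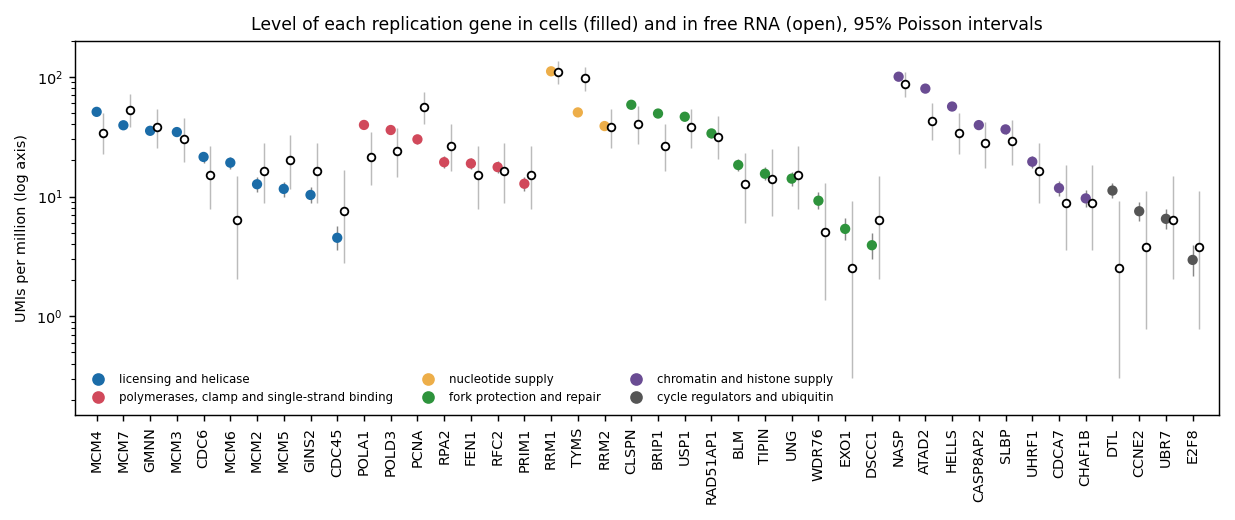
CPM of each of the 42 genes (y, log axis) in cells (filled, coloured by role) and in free RNA (open), with exact 95% Poisson intervals. RRM1 stands highest at 111 CPM and E2F8 lowest at 2.95 CPM, and TYMS and PCNA lie higher in free RNA than in cells.

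Free RNA was read from 412160 barcodes with 1 to 100 UMIs and at most 100 peak counts, which hold 791471 UMIs. There the members summed to 1119 CPM (1047 to 1196), so the level in cells was only 1.12 times that of free RNA (1.04 to 1.20). UMIs of the members in cells are to be read against this background. Other lists went both ways on this scale. The 12 housekeeping genes summed to 17304 CPM in cells and 24414 in free RNA, and mesothelial markers to 11520 and 14753.5. The G2 and mitosis genes summed to 3578 CPM in cells and 2772 in free RNA. By role, chromatin and histone genes (1.38, 1.20 to 1.60) and fork and repair genes (1.32, 1.13 to 1.57) were higher in cells. Licensing and helicase genes (1.01, 0.872 to 1.18) and polymerase genes (0.999, 0.842 to 1.19) stood level. The 3 nucleotide supply genes together stood at 0.821 of their free level (0.710 to 0.955). Of these RRM1 (1.02, 0.823 to 1.28) and RRM2 (1.02, 0.709 to 1.53) stood level, and only TYMS was lower in cells (0.518, 0.410 to 0.663).

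Single members spread further. DTL was 4.44 times its free level (1.21 to 36.9), on 2 free UMIs. MCM6 was 3.03 times its free level (1.29 to 9.41), on 5 free UMIs, and 1.06 times when free RNA was taken to 200 UMIs a barcode. BRIP1 stood at 1.86 times, ATAD2 1.85 times, POLA1 1.84 times and HELLS 1.65 times. TYMS was at 0.518 of its free level (0.410 to 0.663) and PCNA at 0.540 (0.396 to 0.753). In all, 8 members had an interval above 1 and 2, TYMS and PCNA, an interval below 1. The share of all genes with such intervals was not computed, so these counts have no background beside them. The 21 members with a locus of at least 23.65 kb were together 1.32 times higher in cells (1.20 to 1.46), while the 21 shorter ones stood at 0.907 (0.824 to 1.00). Over the 42 genes locus length and this ratio had a Spearman rho of 0.446 (Pearson r 0.438 on logs), a description of genes that share 1 library.

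To see whether the members vary together, each gene was compared between cells with at least 3 UMIs of the other 41 members among 800 (high cells) and cells with none, so that no gene helped to choose its own cells. Over all 42 members 1115 cells (12.5%) were high and 3310 (37.1%) had none, with 4488 between. The high and none cells had similar depth: medians of 1609 and 1567.5 UMIs, 3997 and 4210 peak counts, and 13.8% and 14.2% mitochondrial UMIs. Levels in this comparison are per 1000000 non-mitochondrial UMIs. A gene was compared if its level, pooled over high and none cells, predicted at least 20 UMIs in each class. UMIs of high cells count in this level, so a gene higher there passes more easily. Some genes, such as DTL (60 UMIs in high and 33 in none cells), WDR76 (50 and 31) and MCM10 (53 and 27), passed only through their UMIs in high cells.

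Of the 36 members compared, 32 were at least 1.5-fold higher in high cells, against a background of 4.92% of 9195 other genes. At 2-fold the count was 22, against 1.03%. No member was 1.5-fold lower, where the background was 2.29%. The median ratio was 2.12 (log2 1.08), beside 1.02 for all other genes, and the summed level went from 1117 to 2386 CPM, a ratio of 2.14. The 6 members under the floor (CDC45, UBR7, CCNE2, EXO1, E2F8 and DSCC1) had ratios between 2.36 and 2.64 on 11 to 31 UMIs in high cells.

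Among licensing and helicase genes 8 of 9 compared were past 1.5-fold. CDC6, the loader of the MCM ring, had 85 UMIs in none cells and 95 in the far fewer high cells, which is 15.6 against 50.9 CPM and a ratio of 3.26 (2.41 to 4.43). MCM3 went from 23.7 to 75.97 CPM (3.21, 2.51 to 4.11), MCM7 from 34.8 to 83.0 (2.38) and MCM4 from 44.6 to 93.7 (2.10). MCM5, MCM2 and MCM6 had ratios of 2.13, 2.05 and 2.04, so MCM3 had the largest ratio of the ring's subunits, and its interval overlaps those of the others. GMNN, which is degraded after mitosis and blocks relicensing, had the smallest ratio of the role, from 37.6 to 54.6 CPM (1.45, 1.13 to 1.85).

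Of the 7 polymerase, clamp and single-strand binding genes, 6 were past 1.5-fold. POLA1, which with the primase PRIM1 starts each new strand, went from 33.5 to 74.3 CPM between the classes (2.22, 1.77 to 2.79), and PRIM1 had a ratio of 2.04. FEN1 stood at 2.14, the polymerase delta subunit POLD3 at 2.00, the clamp-loader subunit RFC2 at 1.73 and the single-strand binding protein RPA2 at 1.67. PCNA, often used as a marker of S phase, had the smallest ratio, from 30.4 to 42.1 CPM (1.39, 1.05 to 1.83). All 3 nucleotide supply genes were past 1.5-fold. RRM2, the small subunit whose level is cell-cycle regulated, went from 31.9 to 85.1 CPM (2.67, 2.14 to 3.33) and RRM1 from 105 to 193 CPM (1.84, 1.60 to 2.11). With cells thinned to 400 UMIs their order turned, with RRM1 at 2.22 and RRM2 at 2.07. TYMS went from 49.5 to 75.2 CPM (1.52, 1.23 to 1.87). PCNA and TYMS are also the 2 members whose interval for cells over free RNA lay below 1, and the part of free RNA in their small ratios was not tested.

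Fork protection and repair genes had the widest range. WDR76, a DNA-damage-associated WD-repeat protein, had 31 UMIs in none cells and 50 in high cells, or 5.73 against 26.2 CPM (4.57, 2.87 to 7.41). BRIP1, the partner helicase of BRCA1, went from 33.4 to 116 CPM (3.48, 2.84 to 4.26) and CLSPN from 47.7 to 129 (2.70, 2.26 to 3.24). The helicase BLM had a ratio of 2.70, RAD51AP1, which assists homologous recombination, 2.51, and the uracil glycosylase UNG 1.72. USP1 (1.41, 1.12 to 1.76) and the fork-protection subunit TIPIN (1.16, 0.769 to 1.72) did not reach 1.5-fold, and TIPIN was the only compared member whose interval included 1. Of the 8 compared, 6 were past 1.5-fold.

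All 8 chromatin and histone supply genes were past 1.5-fold, 5 of them past 2-fold. HELLS went from 41.6 to 131 CPM (3.15, 2.61 to 3.79). UHRF1, which guides maintenance methylation behind the fork, had a ratio of 2.81, the CAF-1 chaperone subunit CHAF1B 2.69, CDCA7, the partner of HELLS, 2.44, and ATAD2 2.35 (2.01 to 2.75). CASP8AP2 (1.68), NASP (1.65, 1.42 to 1.91) and SLBP, which binds histone mRNA (1.61, 1.26 to 2.05), had the small ratios. Of the cycle regulators only DTL could be compared. DTL, the substrate receptor that marks CDT1 for destruction in S phase, went from 6.10 to 31.8 CPM (5.21, 3.35 to 8.23). This was the largest ratio among the 36, on 33 UMIs in none cells and 60 in high cells, and it passed the floor through the latter.

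**Figure D2:**
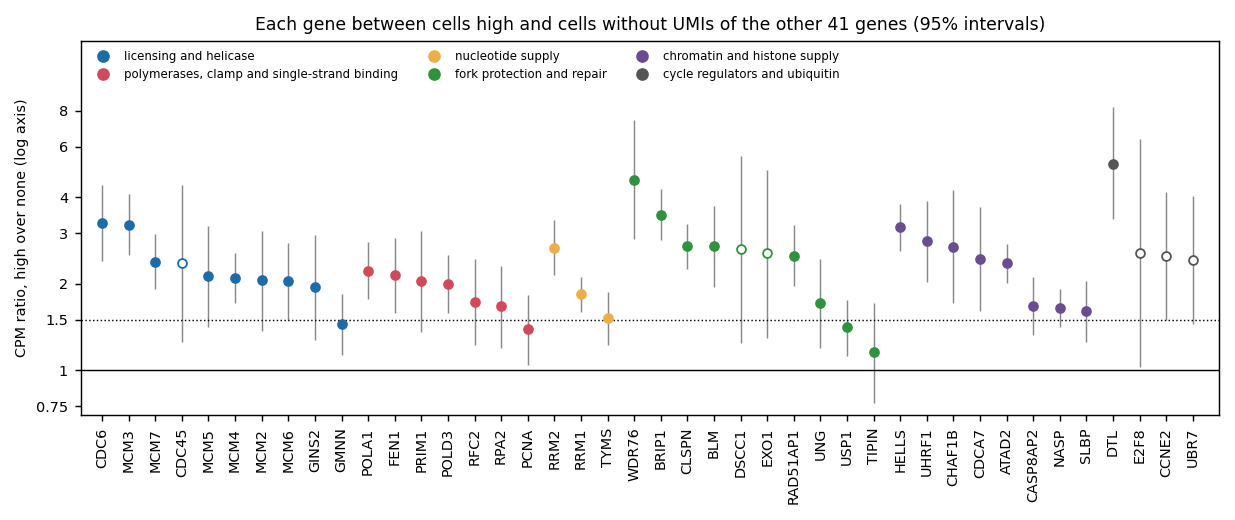
Ratio of each gene's CPM between cells with at least 3 UMIs and cells with 0 UMIs of the other 41 genes (y, log axis), by role, with exact 95% intervals. Open points are the 6 genes under the floor, the dotted line marks 1.5-fold, and 32 of 36 filled points lie above it, with TIPIN lowest and DTL highest.

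The increase was graded over the number of UMIs of the other members. The summed level stood at 1117, 1368, 1701, 2030, 2463 and 3498 CPM in cells with 0, 1, 2, 3, 4 and 5 or more such UMIs, up to 3.13-fold. From the first to the last of these bins nucleotide supply genes went up 2.47-fold and polymerase genes 2.81-fold. Licensing and helicase genes went up 3.24-fold, chromatin genes 3.25-fold and fork genes 3.33-fold. The 4 cycle regulators went up 6.56-fold, on 47 UMIs in the last bin. That bin held 172 cells, whose median of 2036 UMIs was above the 1469 to 1634 of the other bins, and the part of depth in its values was not tested.

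**Figure D3:**
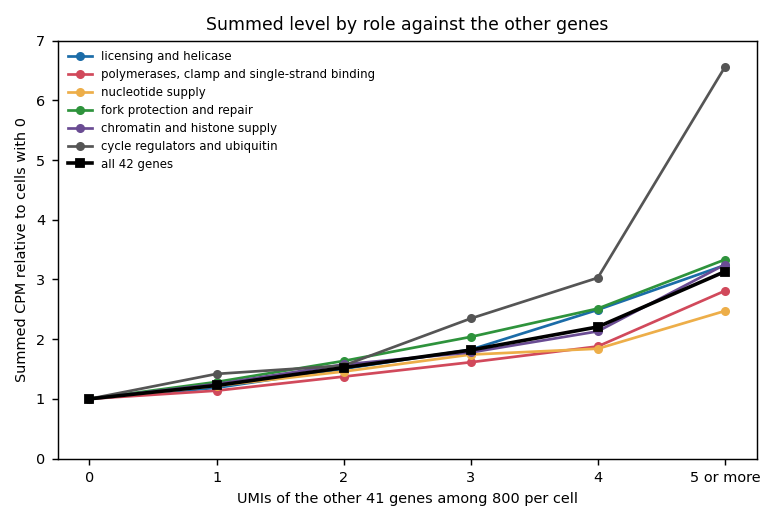
Summed CPM of each role relative to cells with 0 UMIs of the other genes (y) against the number of UMIs of the other 41 genes among 800 per cell (x). Each line goes up with the number of other UMIs, from 2.47-fold for nucleotide supply to 6.56-fold for cycle regulators in the last bin.

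Outside the set, other genes of the replication pathway were higher in the same cells. Of 74 further replication genes 61 were compared between high and none cells, 42 were at least 1.5-fold higher and 0 lower, with a median log2 ratio of 0.88. By role 7 of 11 licensing, 12 of 18 polymerase, 3 of 7 nucleotide, 5 of 6 chromatin, 9 of 11 fork and 6 of 8 regulator genes were past 1.5-fold. Among subunits of the origin recognition complex, ORC6 had a ratio of 2.79 (2.06 to 3.77), while ORC2, ORC3, ORC4 and ORC5 lay between 0.925 and 1.30. ORC1, under the floor, had 3.64 (1.67 to 8.16) on 17 UMIs in high cells and 13 in none cells. The accessory polymerase subunits POLD2 (1.08), POLD4 (0.961) and POLE4 (0.871) stood near 1, and the polymerase epsilon subunits POLE (2.58) and POLE2 (2.73) did not. In nucleotide supply RRM2B, the reductase subunit of the p53 response, was at 0.843 (0.614 to 1.14), unlike RRM2.

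Across all 9195 other genes the 8 largest ratios belonged to MCM10, which helps to activate the helicase (5.47, 3.38 to 9.04), the repressor E2F7 (4.96), FAM111B (4.24), the PCNA unloader ATAD5 (3.46), the centromere protein CENPU (3.24), the Fanconi anaemia gene FANCA (3.23), the cohesin regulator CDCA5 (3.21) and the histone chaperone ASF1B (3.13). Of the first 30 genes by ratio 14 were in the list of further replication genes. The 4 smallest ratios belonged to the epithelial ETS factor ELF3 (3.41-fold lower, 1.78 to 7.34), CASC20 (2.76-fold lower), MREG (2.48-fold lower) and the secreted lipocalin LCN2 (2.42-fold lower, 1.65 to 3.65).

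Lists of other genes were read between the same cells. Of 51 G2 and mitosis genes compared 21 were past 1.5-fold and 0 lower, against the background of 4.92%, with a median log2 ratio of 0.54. They include NDC80 (2.27), AURKB (2.25), TOP2A (1.66), ANLN (1.92) and SMC4 (1.68), while CBX5 stood at 1.42. Of 12 G1 and quiescence genes 0 were past 1.5-fold (median log2 0.11), with CDK6 at 1.00, CCND1 at 1.17, CDKN1A at 1.07 and CDK4 at 1.19. Replication-dependent histones, whose mRNAs lack the poly(A) tail that this assay captures, had 3 of 9 past 1.5-fold (median log2 0.32), with H4C3 at 1.35 and H1-2 at 1.16. Of 12 housekeeping genes 1, HPRT1, was past 1.5-fold (1.76) and the median log2 ratio was 0.016. Mesothelial markers had 0 of 11 past 1.5-fold and a median log2 ratio of -0.11.

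The S-phase genes were then read by the level of G2 and mitosis genes. At the same depth 4682 cells had at least 3 UMIs of the 54 G2 and mitosis genes and 943 had none. Of 33 members compared 26 were at least 1.5-fold higher in the former, against a background of 5.52% of 8643 genes, with a median ratio of 1.70. Here BLM (3.62, 2.07 to 6.91), RRM2 (3.25, 2.23 to 4.91), RAD51AP1 (2.86), FEN1 (2.76), ATAD2 (2.37), HELLS (2.30), TYMS (2.27) and GMNN (2.27, 1.60 to 3.31) led. MCM6 (0.833, 0.597 to 1.18), TIPIN (1.02), SLBP (1.16), CDCA7 (1.18) and PRIM1 (1.19) stood lowest. GMNN had 1.45 by the other S-phase genes, and DTL had 1.51 here and 5.21 there, and the difference between the comparisons was not tested. A larger ratio by the S-phase genes was seen in 22 of the 33. E2F8 had 33 UMIs in the cells high for mitotic genes and 0 in those without, and CDC45 46 and 1. Among S-phase high cells 65.4% (62.5 to 68.2) were also high for G2 and mitosis genes, against 44.1% (42.4 to 45.8) of cells with no S-phase UMI.

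Pairs of members were found in the same cell more often than their separate shares predict. Over 317 pairs with at least 5 expected cells, 5232 joint detections were observed where 4073 were expected, a ratio of 1.28. Of these pairs 250 lay above 1, against 103100 of 208127 pairs of a member with any other gene. With G2 and mitosis genes 901 of 1380 pairs did, and with housekeeping genes 221 of 443. Pairs of the same role (1.22, 53 pairs) did not exceed pairs of different roles (1.30, 264 pairs). Members paired with G2 and mitosis genes gave 1.12, with housekeeping genes 0.997, and with any other gene 1.01. CDC6 with POLA1 and MCM6 with POLA1 had the highest values, each with 15 cells where 6.60 were expected (2.27). By member, BRIP1 (1.48), MCM6 (1.47), HELLS (1.44) and CDC6 (1.44) were highest, while PCNA (1.10), TYMS (1.13) and USP1 (1.13) were near the bottom. UNG was lowest at 0.876, over 4 pairs.

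Cells were also grouped by chromatin alone, from peaks and without expression, into 5 clusters of at least 100 cells. Whether clusters match lines or treatments is unknown, since no cell could be assigned to either, and they are not read as such. Depth differs between them, with median UMIs of 1316 to 2072 and median peak counts of 2544.5 to 8574. The summed level of the 42 genes was 1449 CPM in cluster 1 (4694 cells), 1682 in cluster 2 (1572 cells), 1441 in cluster 3 (1033 cells), 974 in cluster 4 (794 cells) and 1485 in cluster 5 (742 cells), per 1000000 non-mitochondrial UMIs. Clusters 1, 3 and 5 had ratios of 0.996, 0.990 and 1.02 to the rest of the cells, cluster 2 was 1.21 times as high as the rest (1.1745 to 1.2504) and cluster 4 was 1.55-fold lower (1.47 to 1.64).

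The low level of cluster 4 was shared across the set. All 33 members compared were below the rest of the cells there, where 56.4% of 8535 genes were, and 20 of them were at least 1.5-fold lower, against a background of 7.87%. The other 9 members, under the floor, were below the rest as well. Among those compared MCM5 was 2.78-fold lower (8 UMIs in the cluster), BRIP1 2.62-fold (36), MCM2 2.42-fold (10) and UHRF1 2.32-fold (16). As ratios to the rest, the intervals were 0.153 to 0.724 for MCM5, 0.265 to 0.532 for BRIP1 and 0.196 to 0.777 for MCM2. They overlap, so the order of these genes is uncertain. At the other end PCNA was 1.11-fold, TIPIN 1.12-fold and PRIM1 1.16-fold lower. RRM1 and NASP, the most abundant members, were 1.30-fold and 1.31-fold lower. The share of S-phase high cells was 5.04% (3.62 to 6.80) in cluster 4 and between 12.1% and 16.4% in the other clusters, and G2 and mitosis genes summed to 2779 CPM there against 4073 to 4908. Cluster 4 had the most peak counts per cell, with a median of 8574, and its highest genes by ratio were CYP17A1 (4.35), CHI3L1 (3.93) and ISM2 (3.66). The part of depth in its low level was not tested. The highest cluster stood 1.73 times above the lowest, and 1.13 times when the 1592 cells with at most 10% mitochondrial UMIs were clustered again, into 2 clusters.

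In cluster 2, led by ITGA11 (4.33), KIAA1549L (4.03) and IFI44L (3.87), 37 of 38 members compared were above the rest, where 60.6% of 10533 genes were. MCM5 (1.68), CCNE2, the cyclin that drives entry into S phase (1.65), CDCA7 (1.60) and BLM (1.57) had the largest ratios of those compared, and RRM1 stood at 1.02. In clusters 1, 2, 3 and 5 the number of compared members at least 1.5-fold lower was 1, 0, 0 and 0, against backgrounds of 1.94%, 3.69%, 5.33% and 7.19%. Members still varied together inside each cluster. Between high and none cells of the same cluster the summed ratio was 1.54 in cluster 1, which had the fewest counts per cell, and 2.47, 2.40, 2.86 and 2.69 in clusters 2 to 5.

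**Figure D4:**
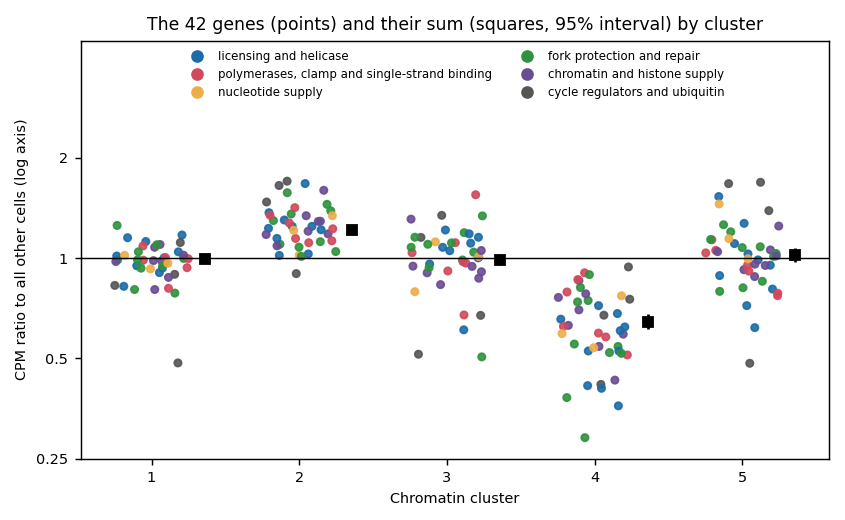
Ratio of each gene's CPM in a chromatin cluster to its CPM in all other cells (y, log axis), with 1 point a gene coloured by role, and squares with 95% intervals for the sum of the 42 genes. Genes under the floor are drawn too; all 42 points of cluster 4 lie below 1 and 41 of 42 points of cluster 2 above it.

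Every member had peaks: 1 to 8 lay within 2 kb of the interval from its first to its last start site, 68 in all. A count in them was found in 3.18% to 28.2% of cells. The interval is long in some members, so peaks inside the gene can count as promoter peaks there. Examples are RRM2 (chr2:10120698-10141883, 8 peaks), ATAD2 (chr8:123396447-123416350, 4 peaks), HELLS and RRM1. Peak counts were taken in pairs as 1 event. Between S-phase high and none cells 0 of 42 promoters were past 1.5-fold, against a background of 0.834% of 17868 genes. An increase of at least 25% was seen in 6 (background 6.16%), and 6 had an interval above 1 (background 3.43%), with 0 below. The median promoter ratio was 1.07, beside 0.997 for all other genes, and 27 of 42 lay above 1 (background 49.1%). Expression of the same genes had a median ratio of 2.12 in this comparison. Among the 2307 cells with at least 2000 UMIs and peak counts 5 of 42 promoters compared were past 1.5-fold (MCM2, MCM5, POLD3, CHAF1B and E2F8), against a background of 1.51% of 14775 genes.

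Pooled over the 68 peaks, the members' promoters took 1363 events per 1000000 in none cells and 1496 in high cells, a ratio of 1.10 (1.06 to 1.14), while all promoters together stood at 1.00. Over cells with 0, 1, 2, 3, 4 and 5 or more member UMIs the values were 1363, 1411, 1409, 1476, 1502 and 1546. The pooled ratio was 0.968 (0.904 to 1.04) in cluster 1, which holds most cells, 1.16 (1.10 to 1.23) in cluster 2, 1.14 (1.04 to 1.24) in cluster 3, 1.07 (0.962 to 1.19) in cluster 4 and 1.08 (0.989 to 1.18) in cluster 5, so the intervals of clusters 1 and 2 do not overlap.

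MCM2 had the largest promoter ratio, with 184 events in none cells and 90 in high cells, or 19.7 against 28.8 per 1000000 (1.46, 1.12 to 1.89). Its only peak lies at chr3:127597919-127598813 (GRCh38) and covers the start site, and TPRA1 also starts within 2 kb. CDCA7 had 1.40 (1.03 to 1.89), and RRM2, over 8 peaks, went from 54.1 to 75.2 (1.39, 1.19 to 1.63). MCM5 had 1.33 (0.937 to 1.88) and E2F8 1.30 (1.03 to 1.63). ATAD2, whose 4 peaks together held the most counts of the set, went from 120 to 152 (1.27, 1.14 to 1.42), and WDYHV1 starts within 2 kb of it. CLSPN had 1.23 (1.03 to 1.47). Among the genes with the largest expression ratios DTL stood at 0.990 (0.704 to 1.37), WDR76 at 1.06 (0.724 to 1.51), BRIP1 at 0.821 (0.594 to 1.12), CDC6 at 1.11, MCM3 at 0.997 and HELLS at 1.17. POLA1 was lowest at 0.809 (0.571 to 1.13). Over the 36 genes compared for expression the 2 ratios had a Spearman rho of 0.161 (Pearson r 0.0983 on logs), a description of points that share cells and depth. The 74 further replication genes had a median promoter ratio of 1.02, with 1 past 1.5-fold.

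**Figure D5:**
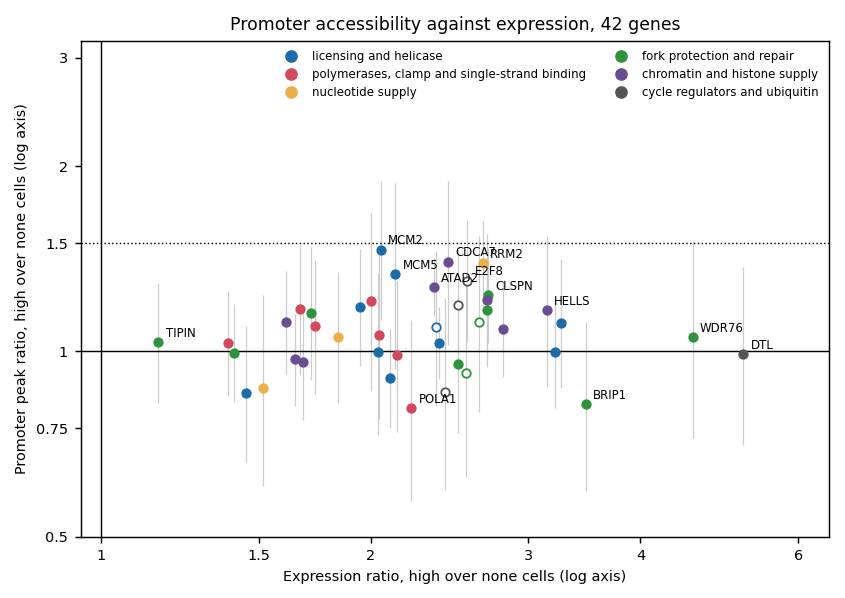
Ratio of promoter peak events (y) against ratio of expression (x) between S-phase high and none cells for the 42 genes, both on log axes, with 95% intervals on y. Open points are the 6 genes under the expression floor. Expression ratios spread from 1.16 to 5.21, and all promoter ratios lie below the dotted line at 1.5, from 0.809 (POLA1) to 1.46 (MCM2).

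Gene by gene, promoters were also compared between cells with and without a UMI of the same gene, at the thinned depth. Enough events were predicted for 15 members. Of these 0 were past 1.5-fold, against 0.44% of 4997 other genes, and 1, HELLS at 1.28 (0.855 to 1.85), was higher by at least 25%, against 5.68%. The median was 0.989, beside 1.01 for the other genes. ATAD2, with 128 events per 1000000 in cells without its UMI and 154 in cells with it (1.20, 1.06 to 1.37), and MCM7, with 89.4 and 111 (1.24, 1.00 to 1.52), had intervals above 1, 2 of 15 against a background of 3.36%. GMNN was lowest at 0.701 (0.390 to 1.16), and NASP, with the second most UMIs, stood at 0.847 (0.681 to 1.04). Another gene starts within 2 kb of 16 members (among them MCM2 and TPRA1, ATAD2 and WDYHV1, MCM7 and AP4M1, DTL and INTS7, MCM4 and PRKDC), and peaks there cannot be told apart from the neighbour's. In the comparison of high and none cells a ratio of 1.5 lay outside the interval of some members, such as RRM1 (1.06, 0.825 to 1.34) and NASP (0.971, 0.816 to 1.15). It also lay outside that of MCM7 (1.03, 0.903 to 1.18), with its shared start, and inside that of others, such as WDR76. These intervals cover counting error only and not the uncertainty of classes set by few UMIs a cell. They therefore do not bound the opening of a promoter in S phase itself.

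The promoter words were set beside both readouts. Of the members compared for expression and matched in RefSeq 15 had an E2F word, with a median expression ratio of 2.38 between high and none cells, and 15 had none, with 1.84. Their median promoter ratios were 1.03 and 1.06. MCM6, with 4 words, had an expression ratio of 2.04, and DTL, with 1, had 5.21. RRM2, BLM and RAD51AP1, which had the largest ratios by G2 and mitosis genes among those compared, had no E2F word in these 300 bases, nor the word TTTGAA. A peak called in these cells covered the RefSeq promoter in 30 of 33 members.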

How the data were processed

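Gene expression (UMI counts) and chromatin accessibility (peak counts) were measured in 1 pool. The authors deposited a matrix of raw, whole-number counts per feature and barcode from Cell Ranger ARC 2.0.0, per the file headers, unfiltered and not normalized. Per the submitters' processing notes, the tools included MACS2, ArchR 1.0.3 and Cell Ranger 2.0.0 and the build was GRCh38.p10. The sources used here do not say how peaks were made. Peak coordinates are on that build, promoter sequences on GRCh38.p14 from RefSeq.

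UMIs were summed over cells and scaled to 1000000 (CPM), with exact Poisson intervals. Ratios carry exact conditional binomial intervals, shares exact Clopper-Pearson intervals, all at 95% and for counting error only, unadjusted for the number of genes. Of peak entries 87.9% were even, so 2 counts are 1 event. Cells were thinned to 800 non-mitochondrial UMIs with seed 0. Calls are by size, at 1.5-fold. Chromatin clusters used 30 components (those correlated over 0.75 with depth left out), 15 neighbours and Leiden resolution 0.5 (scanpy 1.11.5, leidenalg 0.10.2, numpy 2.4.6, scipy 1.17.1). The scripts were tested on simulated data. Members named in full were those with the 12 largest UMI sums and the largest and smallest ratio of each role, other genes the 8 largest and 4 smallest ratios and up to 4 per list by UMIs; further names were chosen after their values were seen. The members and lists were chosen with earlier results of these data known.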

Additional observations from a re-analysis of the deposited data

How the results depend on the processing

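Settings on cells moved the values most. With at most 10% mitochondrial UMIs 1592 cells remained and 3 members could be compared: the summed level was 1375 CPM, its ratio to free RNA 1.23, members past 1.5-fold 3, their median log2 ratio 0.80, further replication genes past 1.5-fold 1 of 8, co-detection 1.15, the median promoter ratio 0.962 over 6 genes, the own-UMI promoter ratio 0.677 over 1 gene and the highest over the lowest cluster 1.13 against 1.73. There UNG (0.632), TIPIN (0.725), PCNA (0.990), EXO1 (0.337), DSCC1 (0.884), CDC45 (0) and E2F8 (0) had ratios below 1 between high and none cells. All of these were under the floor for comparison at this setting. With at least 2000 UMIs and peak counts (2307 cells) the summed level was 1290 CPM, the median log2 ratio 1.37, co-detection 1.44, promoters past 1.5-fold 5 (1.51% of all other genes), and the own-UMI promoter ratio 1.07 with 1 past 1.5-fold (0.674% of other genes). With at least 500 of each, thinned to 400, members past 1.5-fold were 13 of 19, with a median log2 ratio of 0.88. Further genes past it were 14 of 29, co-detection 1.14, promoters past 1.5-fold 1 and the own-UMI ratio 1.03. Without the 8% highest Scrublet scores co-detection was 1.247 and promoters past 1.5-fold 1.

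High cells at 4 UMIs gave 17 of 19 members, a median log2 ratio of 1.42, 22 of 35 further genes and 3 promoters. High cells at 2 UMIs gave a median log2 ratio of 0.73, and no thinning a median log2 ratio of 0.82 with 1 promoter. Thinning to 400 gave 8 of 9 members, 9 of 20 further genes, co-detection of 1.14 and 1 promoter. A floor of 50 gave 16 of 19 members and 20 of 36 further genes. At 2-fold 25 further genes were called, and at the lower fold tried 6 promoters and 1 own-UMI promoter. A window of 0 gave an own-UMI ratio of 1.03, and a non-mitochondrial denominator a summed level of 1453 CPM. In the settings with 1 or 3 promoters past 1.5-fold, 0.515% to 1.14% of other genes were. Lower counts under stricter floors follow from fewer genes compared. For the other changes the cause was not tested. Free RNA taken to 200 UMIs moved 3 members (MCM6 to 1.06, MCM4 to 0.979, RAD51AP1 to 0.683). The comparisons within clusters and the co-detection alternatives were added after seeing the data. No paired analysis was possible because all cells form 1 sample. Sparse counts per cell limit what a single cell's class means, and no line or treatment effect can be read from these values.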
